A study of Mus musculus with 12 samples.

Results

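The wild-type ventricle of the mouse embryo at embryonic day 16.5 was described from the 3 arrays labelled as wild type, out of 12 in the series. Each array held total RNA of 1 independent embryonic ventricle, extracted with Trizol, primed with poly(T), amplified by transcription and hybridised as biotin-labelled cRNA. The remaining 9 arrays carried ventricles of 3 genotypes that lacked Hopx, Hdac2 or both. They entered no value below except through an alternative floor taken from all 12 arrays. The labels called the 3 hearts biological replicates, and strain, litter and sex are not given in the sources used here. With 1 group there was nothing to test, so every count below describes these 3 hearts, and their number limits the precision.

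The ventricular wall at this stage is a dividing tissue. Its muscle cells contract through sarcomeres, in which myosin heavy and light chains pull on actin filaments, and the troponin and tropomyosin complex on those filaments lets calcium switch the pull on. Most of these proteins come from small gene families whose members are used at different ages and in different muscles. In rodents the ventricle carries mainly the slow myosin heavy chain before birth, together with slow skeletal troponin I and the natriuretic peptides, and exchanges them for adult forms after birth. The same wall also holds fibroblasts, endothelium, endocardium, epicardium and vessel muscle, and bulk RNA cannot tell fewer cells of a type from less RNA per cell.

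The table gives 1 linear intensity, here called signal, for each probe set, a group of short probes against 1 transcript. For each of 18193 genes the probe set of highest mean log2 signal was kept, and a signal was called above the floor when it passed 82.9 units, 0.1 times the mean of the trimmed array means. Values of the 3 hearts are always given in the order of replicates 1, 2 and 3. Probe sets bind their targets with different strength, so the order of signals across genes is not an order of transcript abundance. Above the floor on all 3 hearts were 9156 genes, which is 50.3% of all genes measured, and every count of members below is to be read against that share. It rests on the highest probe set of each gene: with the median probe set, 5937 genes passed. Another 375 genes were above it on 1 or 2 hearts, and 8662 on none. Between the genes in the low peak, 7551 with a mean signal under 10, and the floor lay only 1264 genes. A gene under the floor was not detected by its probe sets, which does not show that it was not transcribed.

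**Figure D1:**
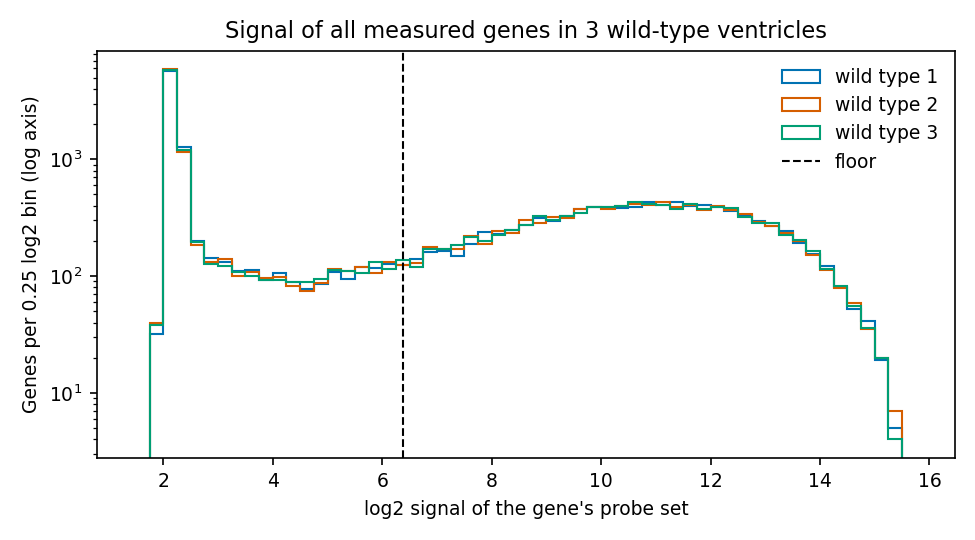
Number of genes (log axis) in each 0.25-wide bin of log2 signal, 1 line per wild-type heart, with the floor as a dashed line. The 3 lines run together and show a low peak that holds most of the 7551 genes with a mean signal under 10, and a broad second peak of the genes above the floor.

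All 4 markers given for the ventricle were among the highest signals of the table. Myl2, the regulatory light chain of the ventricle, read 38623, 38794 and 38459. Myh7, the slow heavy chain that predominates before birth, read 33381, 32864 and 34936. The cardiac actin Actc1 read 37816, 37862 and 37972, and the cardiac troponin T gene Tnnt2 40652, 41483 and 42019. The highest heart was 1.01, 1.06, 1.004 and 1.03 times the lowest for Myl2, Myh7, Actc1 and Tnnt2. The full list of ventricular muscle markers had 12 of 12 genes above the floor, and 9 of them stood in the top 1% of all genes by signal. Its other members included the ventricular transcription factors Irx4, with 3920.4, 5028 and 5312, and Hey2, with 9152, 8147 and 9098. The list also holds Nppa, the atrial natriuretic peptide, so detection of its members does not by itself tell ventricle from atrium. Of 10 atrial markers, 7 were above the floor as well, as described below.

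The start regions of 6 of these heart muscle genes are shown because they contain the letters of a TATA box, or differ in how many CG pairs they hold, which are properties that the choice of samples did not use. Each is 300 bases of RefSeq sequence of build GRCm38.p6, from 250 bases before to 50 after the annotated start, read 5′ to 3′ on the strand of the gene. The first 4 are the promoters among 14 marker and partner genes in which TATAAA, in capitals, was found. The last 2 have every CG pair in capitals and show a window poor and a window rich in them.
Nppb, chr4:147985650-147985949, plus strand: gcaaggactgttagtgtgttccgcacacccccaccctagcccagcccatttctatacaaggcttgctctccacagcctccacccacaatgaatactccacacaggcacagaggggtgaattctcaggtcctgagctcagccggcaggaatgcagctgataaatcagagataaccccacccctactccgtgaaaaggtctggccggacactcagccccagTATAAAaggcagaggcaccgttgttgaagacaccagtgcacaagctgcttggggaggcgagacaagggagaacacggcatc
Nppa, chr4:148000472-148000771, plus strand: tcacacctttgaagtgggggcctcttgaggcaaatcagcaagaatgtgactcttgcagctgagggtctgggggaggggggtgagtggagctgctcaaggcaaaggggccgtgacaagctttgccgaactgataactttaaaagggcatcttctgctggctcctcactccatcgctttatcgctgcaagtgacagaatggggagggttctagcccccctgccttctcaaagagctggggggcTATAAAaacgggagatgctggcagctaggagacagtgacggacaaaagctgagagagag
Myh6, chr14:54966558-54966857, minus strand: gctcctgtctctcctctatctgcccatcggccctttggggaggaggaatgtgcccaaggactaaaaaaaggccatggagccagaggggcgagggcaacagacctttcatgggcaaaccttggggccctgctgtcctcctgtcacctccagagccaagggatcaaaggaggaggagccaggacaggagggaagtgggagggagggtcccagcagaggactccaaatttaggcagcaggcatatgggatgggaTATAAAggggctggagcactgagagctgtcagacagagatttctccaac
Actc1, chr2:114052826-114053125, minus strand: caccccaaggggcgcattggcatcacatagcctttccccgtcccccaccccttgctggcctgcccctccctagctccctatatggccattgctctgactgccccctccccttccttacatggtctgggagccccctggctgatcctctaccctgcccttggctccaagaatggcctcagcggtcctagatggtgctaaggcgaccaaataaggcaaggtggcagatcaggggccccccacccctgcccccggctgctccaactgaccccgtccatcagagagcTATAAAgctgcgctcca
Myl3, chr9:110763428-110763727, plus strand: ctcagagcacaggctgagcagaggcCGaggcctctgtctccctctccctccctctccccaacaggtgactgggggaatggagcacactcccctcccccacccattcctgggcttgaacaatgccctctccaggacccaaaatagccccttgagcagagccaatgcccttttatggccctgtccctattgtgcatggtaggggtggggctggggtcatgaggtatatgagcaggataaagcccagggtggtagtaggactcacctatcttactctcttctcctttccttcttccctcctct
Hey2, chr10:30842734-30843033, minus strand: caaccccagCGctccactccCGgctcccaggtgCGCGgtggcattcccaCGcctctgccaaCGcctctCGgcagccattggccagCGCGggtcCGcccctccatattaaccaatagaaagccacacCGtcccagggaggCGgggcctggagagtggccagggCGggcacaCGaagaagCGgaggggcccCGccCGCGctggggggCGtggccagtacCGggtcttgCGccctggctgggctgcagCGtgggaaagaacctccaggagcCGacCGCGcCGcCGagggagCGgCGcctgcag
The letters began 31 bases before the annotated start in Nppb and 9 before it in Nppa. In Myh6 they began 1 base after that start, and in Actc1 33 bases after it. Myl3 held 1 CG pair in its window, and Hey2 held 29. A match describes these letters and does not show that a factor bound there.

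Among myosin heavy chains, 5 of 12 genes were above the floor on all 3 hearts: both cardiac chains Myh6 and Myh7, the slow-tonic relative Myh7b, and the non-muscle chains Myh9 and Myh10. Myh6, the fast chain that dominates the adult mouse ventricle, read 38694, 39596 and 37303. The smooth muscle chain Myh11 read 74.6, 160.1 and 115, above the floor on hearts 2 and 3 only. The skeletal chains Myh1, Myh2, Myh3, Myh4 and Myh8 were all at or under 5.37 on every heart, including the embryonic and perinatal forms Myh3 and Myh8. Hence fast skeletal heavy chains were not detected while both cardiac ones were.

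The light chains showed ventricular and atrial forms side by side. Of 9 genes, 7 were above the floor, and Myl3, the ventricular essential chain, read 38783, 39568 and 38908. Myl4, the essential chain of atrium and of the embryonic heart, read 18983, 22205 and 23586. Myl7, the regulatory chain of the atrium, read 12541, 10216 and 9628. Myl4 was lowest and Myl7 highest on heart 1, so the pair of atrial chains did not go the same way across hearts. The skeletal chain Myl1 read 558, 256 and 324 and had a range, meaning the highest heart over the lowest, of 2.18-fold. The fast skeletal regulatory chain Mylpf stayed under 5 on all 3 hearts.

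For troponin I both the fetal and the adult cardiac gene were above the floor. Tnni1, the slow skeletal form used by the fetal heart, read 22978, 21981 and 22696. Tnni3, the adult cardiac form, read 21967, 21480.3 and 18614, with heart 3 the lowest. The cardiac and slow troponin C gene Tnnc1 read 33656, 35359.7 and 34460.3, and the slow skeletal troponin T gene Tnnt1 read 886, 1021 and 1354. Fast skeletal partners were under the floor: Tnnt3 and Tnnc2 on all 3 hearts, and Tnni2 on hearts 1 and 2, with 27.7, 45.0 and 84.6.

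All 4 tropomyosins and 5 of 6 actins were above the floor on every heart. Tpm1, the main striated form, read 27654, 29729 and 29104, and the smooth muscle actin Acta2, which early heart muscle also uses, read 18217, 23813 and 24691. The skeletal actin Acta1 read 665, 2345 and 2189, so that heart 1 stood 3.53-fold below heart 2. Its 3 values make Acta1 the actin with the widest range. Among the myosin binding proteins C, which brace the thick filament, the cardiac Mybpc3 read 20729.5, 21282 and 19669.6, and the fast skeletal Mybpc2 read 352, 851 and 589. Mybpc1, Mybph and Mybphl were under the floor on all 3 hearts.

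**Figure D2:**
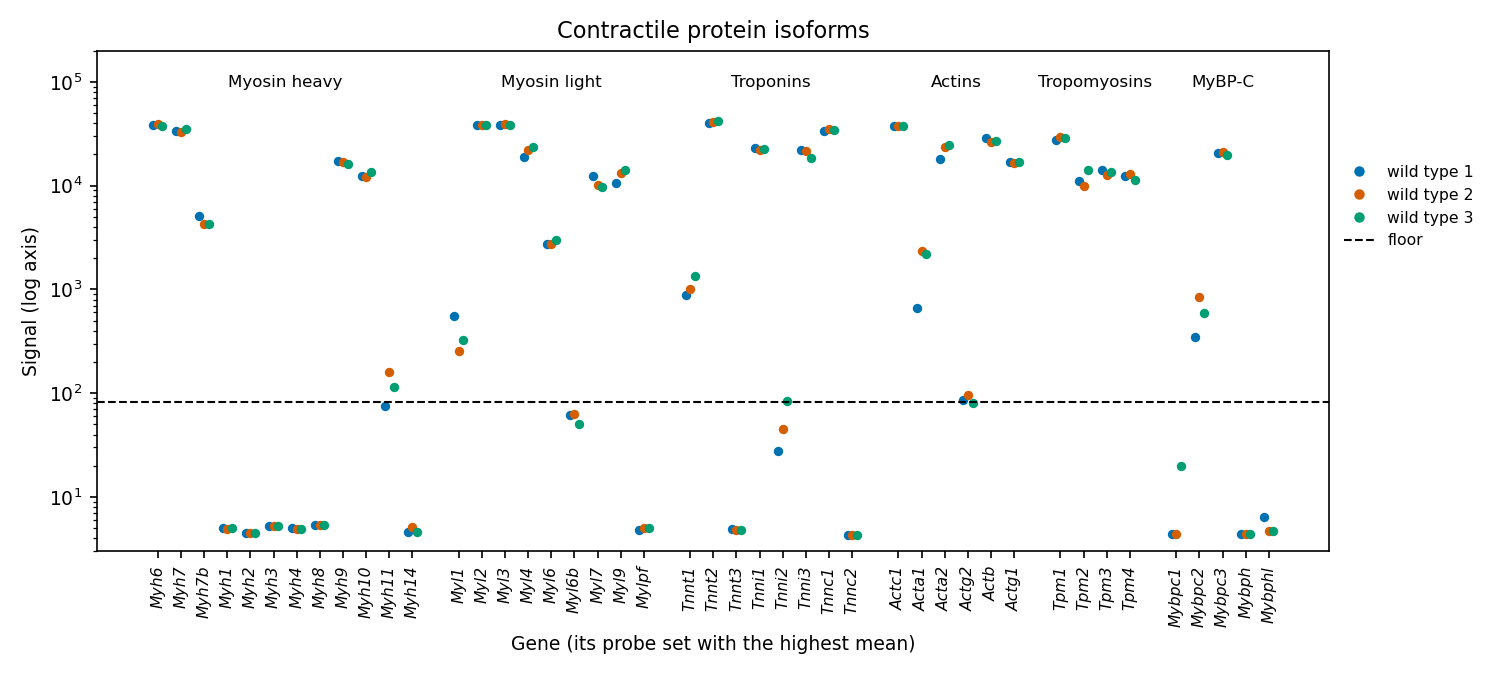
Signal (log axis) of every measured member of 6 contractile protein families, 1 point per wild-type heart, with the floor as a dashed line. Cardiac members such as Myl2 and Tnnt2 show overlapping points near the top, Acta1 shows heart 1 at 665 below hearts 2 and 3, and most fast skeletal members lie near the bottom of the scale.

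Calcium handling followed the cardiac set. Atp2a2, the pump that refills the sarcoplasmic reticulum, read 32980.0, 32686 and 32339, while Atp2a1 and Atp2a3 were under 5 on all 3 hearts. Ryr2, the cardiac release channel, read 17134, 17642 and 16566, and the skeletal Ryr1 stayed under 5. The pump inhibitor phospholamban, Pln, read 25952, 25893 and 26226. Both calsequestrins, which store calcium, were above the floor, the cardiac Casq2 with 26522, 27742 and 27295 and the skeletal Casq1 with 2496, 3389 and 2415. Sarcolipin, Sln, a pump inhibitor better known from atrium, read 1616, 519.9 and 877 and was 3.11-fold higher on heart 1 than on heart 2.

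Gap junction genes were few, with 4 of 11 measured connexins above the floor. Gja1, the main connexin of working ventricular muscle, read 28589.9, 27315 and 26379, and Gjc1, found in early and conducting muscle, read 2888, 2159 and 2137. Gja3 read 7678, 8345 and 6767, and the endothelial Gja4 stayed near the floor with 145, 114 and 112. Gja5, the connexin of atrium and the fast conduction fibres, was under 5 on all 3 hearts. All 4 detected connexins were lowest on heart 3, as were 2817 of the 9156 genes above the floor, and for Gja4 and Gjc1 hearts 2 and 3 were nearly equal.

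Of 19 measured pacemaker and cardiac potassium channel genes, 15 were above the floor. Kcnq1 and its partner Kcne1, which form the slow repolarising current, read 1880.5, 2396 and 2007 and 7826, 10404 and 8937. The rapid repolarising channel Kcnh2 read 873, 1100.1 and 1046. Kcnj2 and Kcnj12, which carry the resting inward rectifier current, were both under 5, whereas the acetylcholine-gated pair Kcnj3 and Kcnj5 were above the floor, with 2639, 1558 and 1651 and 3001, 3399 and 3249. The channel Kcnk3, which leaks potassium at rest, read 1246, 2577 and 1706 and was the member with over 2-fold range. Among sodium and calcium channel subunits 8 of 26 were above the floor, including the L-type pore Cacna1c, with 8675, 8439 and 8516, and its partner Cacna2d1, with 8339, 9536 and 8612. The T-type channel Cacna1g read 357, 639.8 and 325, and the sodium and calcium exchanger Slc8a1 read 677, 745 and 683.

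Fuel use was represented by both glycolytic and mitochondrial genes. Glucose entry had the fetal transporter Slc2a1, with 16117, 16993 and 17845, and the insulin-responsive Slc2a4, with 2113, 2357 and 1512. Hk1 and Hk2, which trap glucose in the cell, read 7987, 8954 and 10372 and 8159.8, 10830.5 and 9075. Slc2a1 and Hk1 were both highest on heart 3 and lowest on heart 1, with ranges of 1.11-fold and 1.30-fold. Of 18 glycolytic isozymes 14 were above the floor, and the muscle and ubiquitous lactate dehydrogenases read 23574, 24109.6 and 23987 for Ldha and 29414, 29539.9 and 29479.9 for Ldhb. The neuronal enolase Eno2 was the isozyme with over 2-fold range, with 188, 177 and 424. Testis and liver forms, Gapdhs, Pgk2, Ldhc and Pklr, were under 5 on all 3 hearts.

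Of 12 glycogen enzymes 11 were above the floor, with phosphorylase genes of muscle, brain and liver together. Pygm read 6628, 7803 and 6805, Pygb 9496, 8015 and 7235 and Pygl 1192, 1334 and 1319. The liver synthase Gys2 was under 5 while the muscle synthase Gys1 read 1346, 1202 and 1374. Above the floor were thus 3 phosphorylase genes and 1 synthase gene.

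Lipid and oxidative genes were also well above the floor. The heart fatty acid binding protein Fabp3 read 31039.6, 32255 and 30863, the endothelial and adipose Fabp4 20306, 20077 and 18729, and the epidermal Fabp5 20623, 17893 and 19655. Liver and gut forms Fabp1, Fabp2 and Fabp6 were under the floor. Pdk4, a kinase that closes pyruvate entry into the mitochondrion, read 16458, 13143 and 15542. Cpt1a, the liver type of the enzyme that admits fatty acids, read 3991, 2856 and 4030.3. Its relative Cpt1b had no single-gene probe set, so the choice between these genes could not be read. Cytochrome oxidase had 11 of 12 listed subunits above the floor, with the heart forms Cox6a2, Cox7a1 and Cox8b beside the general forms Cox6a1, Cox7a2 and Cox8a. For that subunit VIa pair the signals were 20304, 23072 and 19187 for Cox6a2 and 26913, 26319.7 and 27101 for Cox6a1. Slc25a4, the muscle carrier that exports ATP from mitochondria, read 44616, 43007 and 42397, the highest mean signal of all genes.

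Of the 4 creatine kinases, which buffer ATP through phosphocreatine, 3 were above the floor. Ckm, the muscle form, read 7304, 8418 and 7823, and the brain form Ckb read 3375, 3239 and 2462. The mitochondrial muscle form Ckmt2 read 5758, 5399.7 and 2184, with heart 3 at 2.64-fold below heart 1. Myoglobin, Mb, the oxygen store of muscle, read 18597, 19047 and 14872, also lowest on heart 3. Of the adult globins of blood cells, Hbb-b2 read 13330.0, 12441 and 12433 and Hba-a2 3215, 4447 and 4084, while Hba-a1, a near-identical copy of Hba-a2, was under 5. Copies this alike can share probes, so the pair cannot be told apart with certainty. The embryonic globins Hbb-bh1 and Hba-x were under 5, and Hbb-y was above the floor on heart 3 alone, with 7.66, 4.84 and 123.

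Over all 22 lists of tissue isoforms, 143 of 238 measured genes, or 60.1%, were above the floor on all 3 hearts, beside the 50.3% of all genes. The lists were chosen for the heart, so this share is a description of them only.

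Of 31 measured cardiac transcription factors, 24 were above the floor. Gata4 read 5089, 5593 and 6264, Nkx2-5 764, 821 and 729.8 and Tbx20 12423, 11449 and 11874, all of them core regulators of heart muscle. Mef2a, Mef2c and Mef2d were above the floor and Mef2b was under 5. The serum response factor Srf read 5721, 4712 and 6273 and its cofactor Myocd 11519.5, 16732 and 14674. Hand2 read 1308, 1219 and 1218, whereas Hand1, which marks the early left ventricle, was under the floor with 6.27, 5.56 and 6.44. Hopx itself, a small homeodomain protein of heart muscle, read 8653, 8577 and 12221. Tbx5, a factor stronger in left than right ventricle, read 1269, 694 and 619, and Irx5 374, 771 and 449.9, and these were the 2 members with over 2-fold range.

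Regulators of other lineages were nearly all under the floor, with 22 of 23 below it on every heart. They included the skeletal muscle factors Myod1, Myf5 and Myog, the neural factors Neurog1 and Neurod1, and the endodermal factors Foxa2 and Cdx2. The exception was Nanog, with 91.1, 118 and 95.2, just over the floor of 82.9. Among metabolic regulators 10 of 18 were above the floor, with Ppargc1a, a coactivator of mitochondrial genes, at 11307, 8682 and 9832 and Esrrg at 6918, 6855 and 7306. Ppara, which controls fatty acid oxidation, read 162, 111 and 68.7, above the floor on hearts 1 and 2. Pparg and Ppard were under it on all 3 hearts.

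Signalling genes differed in how completely each pathway was detected. The Notch pathway had 11 of 19 genes above the floor. Its receptors Notch1, Notch2, Notch3 and Notch4 were all detected, Notch1 with 3667, 3739 and 3838 and Notch2 with 16781, 14506 and 15059.7. Of its ligands Jag1 read 6197, 6004 and 6081, while Jag2, Dll1, Dll3 and Dll4 were under the floor. The targets Hey1, Hey2 and Heyl were above it, and Hes1 and Hes5 were not.

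The neuregulin pathway, which passes a growth signal from endocardium to muscle, had 4 of 13 genes above the floor. Erbb3 read 759, 727 and 581 and Erbb2 108, 101 and 107, close to the floor. Nrg1 and Erbb4 were under it, each through its only probe set, with 4.81, 4.75 and 4.76 for Nrg1 and 5.14, 5.01 and 5.04 for Erbb4. Heparin-binding Hbegf read 621, 580.2 and 592. Egf, another ligand, read 363, 492 and 163 and was 3.02-fold lower on heart 3 than on heart 2.

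Insulin-like growth factor genes were detected from ligand to receptor. Igf2, the imprinted fetal growth factor, read 22032, 24056 and 25149, and Igf1 read 2894, 2915 and 3108. Their receptors Igf1r, Igf2r and Insr were all above the floor, Igf2r with 12676, 10718 and 13041. Of the binding proteins, Igfbp3, Igfbp4, Igfbp5 and Igfbp7 were above it, and Igfbp1, Igfbp2 and Igfbp6 were not. Of 16 genes for fibroblast growth factors and receptors, 6 were above the floor, among them Fgf1 and Fgfr1, with 3498, 4217 and 2846 and 442, 296 and 260.0.

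The vessel growth pathway had 12 of 14 genes above the floor. Vegfa, the leading ligand, read 3843, 3209.9 and 3250.4, and its receptors Kdr and Flt1 read 2194, 1894 and 1311 and 2306, 2726 and 2303. Angpt1 read 700.5, 746 and 626, and its antagonist Angpt2 was under the floor. Of 12 measured adrenergic, muscarinic, endothelin and angiotensin genes, 2 were above the floor on all 3 hearts, the endothelin receptor Ednrb, with 7130.4, 6147 and 8413, and the angiotensin receptor Agtr1a, with 3088, 4432 and 3032.

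Cell cycle genes were widely detected, with 16 of 20 cyclins, kinases and inhibitors and 15 of 17 growth and mitosis genes above the floor. The mitotic kinase Cdk1 read 6811, 6938 and 7265, and cyclin A2, Ccna2, read 11351, 12211 and 11831. Ccnd1 and Ccnd2, the cyclins that start a cycle, read 8122, 7959 and 7256 and 9873, 11581 and 11528. Inhibitors were present beside them, with 7442, 8394 and 8524 for Cdkn1b and 2159, 2059 and 2969 for Cdkn1c. Cdkn2a and Cdkn2b, inhibitors tied to senescence, were under 5 on all 3 hearts.

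The dissected tissue held RNA of many cell types. All 14 endothelial and endocardial markers, all 10 fibroblast markers and all 5 measured lymphatic markers were above the floor. Cdh5, the junction protein of endothelium, read 1284, 1315 and 1059, and the endocardial Npr3 2523, 1967 and 2517. Col1a1 of fibroblasts read 17405, 15727 and 16773. Of smooth muscle and pericyte markers 9 of 10 were above the floor, and of epicardial markers 6 of 10, including Wt1, with 2487, 1613 and 1899. Macrophage genes were split, with 6 of 11 above the floor: Csf1r read 4744, 4352 and 4689, whereas Adgre1 and Cx3cr1 were under it.

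Tissues that lie next to the heart in a dissection left little signal. None of 9 liver, 8 lung epithelial, 7 thymus and fat, or 9 lymphocyte markers was above the floor on any heart. Of 7 neuron and Schwann cell markers none was above it on all 3 hearts, and Dbh, an enzyme of noradrenaline synthesis, exceeded it on heart 2 alone, with 37.7, 83.0 and 41.8. Of 12 skeletal muscle markers, 2 were above it on every heart, Acta1 and Ckm, both of which heart muscle also uses. Atrial markers were detected more widely, with 7 of 10 above the floor. The atrial markers Bmp10, Stard10 and Fgf12 were under it. Of the 7 detected, 6 had their highest value on heart 1, as did 3773 of the 9156 genes. A range over 2-fold was found for 2 of the 7, or 28.6%, beside 3.99% of all genes. The summed signal of the list was 43478, 40854 and 42468. Without Myl4, its member of highest signal, the sum was 24495, 18649 and 18882, highest on heart 1. How much atrial tissue was dissected with each ventricle was not tested.

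Gene families sorted by name differed in the share of members above the floor. All 76 mitochondrial ribosomal proteins and all 17 ATP synthase subunits were above the floor, as were 33 of 35 complex I subunits. Of the ATP synthase genes 14, and of the complex I genes 13, stood in the top 1% by signal. Atp5a1, the alpha subunit of ATP synthase, read 35814, 35073 and 35184, and Ndufc1 of complex I read 38996, 37558 and 36008. Cytosolic ribosomal proteins were above the floor in 42 of 48 cases, and proteasome subunits in 35 of 39.

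Chromatin enzymes were widely detected, with 16 of 18 histone deacetylases and sirtuins and 15 of 18 histone demethylases above the floor. Of class I, Hdac1 and Hdac2 read 3225, 3578 and 4069 and 4717, 4604 and 5195. Heart 3 was highest for both, with ranges of 1.26-fold and 1.13-fold. Hdac3 of the same class, named after its values were seen, read 329, 219.9 and 208, with heart 3 the lowest. The demethylase Kdm6b read 13273, 15549.7 and 15699.5.

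Patterning and sensory families lay at the other end. None of 33 Hox genes, which set position along the body axis, was above the floor on any heart, and none of 38 olfactory, 31 vomeronasal or 6 taste receptors was. Of 48 keratins, 3 were above it, Krt222, Krt80 and Krt10, and of 72 cytochrome P450 enzymes, 6. Cyp20a1 and Cyp51 of that family read 5132, 4869 and 5813 and 2328, 2328 and 1506. Of 31 chemokines, 3 were above the floor, and Cxcl12, which guides vessel and progenitor cells, read 5155, 5279 and 5587.

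Wnt ligands and their Frizzled receptors were detected unequally. Of 19 ligands 2 were above the floor on all 3 hearts, Wnt5a, with 873, 616 and 762, and Wnt5b, with 363, 414 and 566. Of 10 receptors 8 were, and Fzd2 read 3918, 5667 and 6963. Ephrins and Eph receptors had 10 of 21 members above the floor, semaphorins and plexins 17 of 29, and claudins of tight junctions 3 of 20. Of 21 cadherins, 4 were above it, and Cdh2, the adhesion molecule that joins heart muscle cells, read 15464, 12709.5 and 12920.3.

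Collagens of the basement membrane and of fibrils were both detected. Of 42 collagens, 20 were above the floor on all 3 hearts. The basement membrane pair Col4a1 and Col4a2 read 21558, 23608 and 22379.8 and 18900.0, 21756 and 20490.5, and the fibrillar Col3a1 read 19428, 18843 and 19045. Laminin chains of muscle and vessel, Lama2 and Lama4, read 4094, 5839 and 4429 and 6191, 5969 and 6406. Integrins had 10 of 24 chains above the floor, and Itgb1, the shared beta chain, read 4284, 4480.0 and 4191. The main muscle alpha chain Itga7 was under the floor, with 9.23, 10.4 and 8.81.

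**Figure D3:**
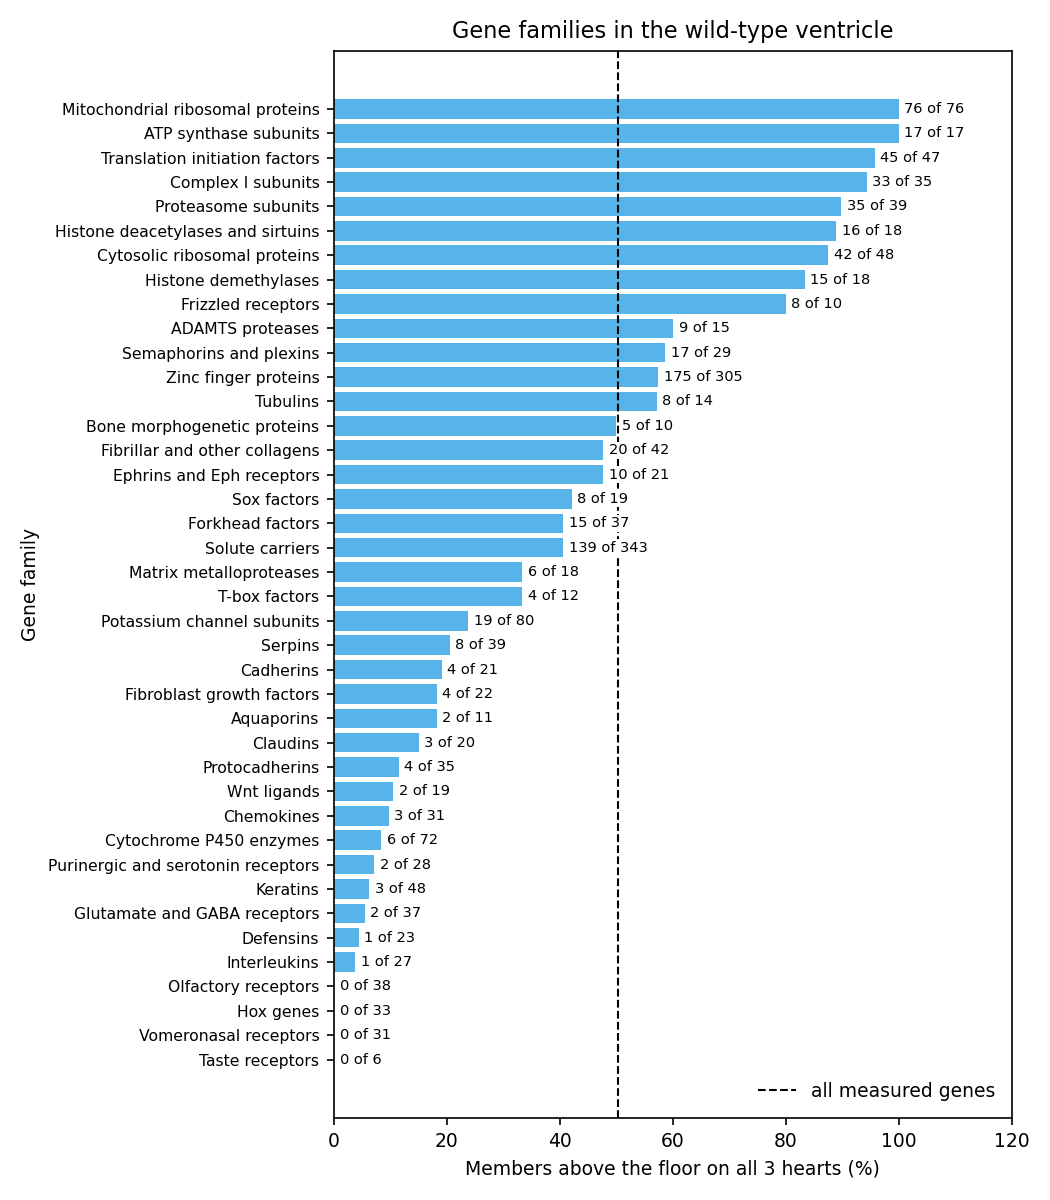
Share of measured members above the floor on all 3 wild-type hearts for 40 gene families (bars, %), with counts beside the bars and the share of all genes, 50.3%, as a dashed line. Mitochondrial ribosomal proteins and ATP synthase subunits fill the top of the scale, and Hox genes and the 3 chemosensory receptor families stand at 0.

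The 3 hearts differed little for most genes. Among genes above the floor on all 3, the median SD of log2 signal was 0.13 (n = 3), and the median range was 1.19-fold. Over 2 hearts the median SD was 0.0806 without heart 1, 0.117 without heart 2 and 0.116 without heart 3. An SD of 2 values tends to be lower than one of 3, so these are to be compared with each other. The floor was applied before the range was taken. Of 9531 genes above the floor on at least 1 heart, 380 had a range over 2-fold, which is 3.99% of them, and 21 of the genes above the floor on all 3 exceeded 4-fold. Over hearts 2 and 3 alone, 156 genes passed 2-fold, with the floor and probe sets chosen from those arrays. Between pairs of hearts, 201 genes differed by over 2-fold between hearts 1 and 2 (2.11%), 202 between hearts 1 and 3 (2.12%) and 155 between hearts 2 and 3 (1.63%). Across the 9156 genes, which are not independent replicates, Pearson's r was 0.985, 0.984 and 0.989 for these pairs.

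Spread fell as signal grew. The median SD of log2 signal was 0.20 for genes with a mean between the floor and 250, and 0.19 from 250 to 1000. It was 0.14 from 1000 to 4000 and 0.079 above 4000. The share with over 2-fold range dropped from 7.86% in the lowest band to 0.228% in the highest. Signals of the same rank differed little between arrays, by a median of 1.07% and at most 6.46% above the floor, so the deposited values had nearly the same distribution on all 3 arrays. How far this held the top signals together was not tested.

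**Figure D4:**
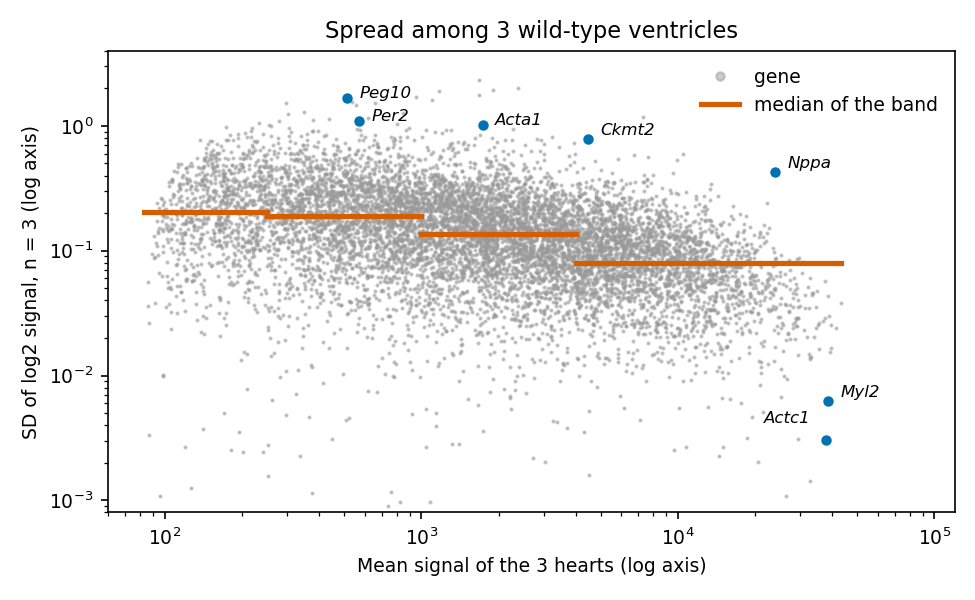
SD of log2 signal among the 3 hearts against mean signal (both log axes), 1 grey point per gene above the floor on all hearts, with the median of each of 4 signal bands as an orange line and 7 genes named in blue. The band medians step down from 0.20 to 0.079, Actc1 and Myl2 lie far below them, and Acta1, Ckmt2 and Nppa lie above.

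The steadiest genes of high signal, those with the smallest SD among 916 genes with a mean of at least 9664, included 2 of the 4 ventricular markers. Actc1 had a coefficient of variation of 0.211% and Myl2 of 0.434%. The ribosomal protein Rps3a1 was steadiest, with 26334, 26305 and 26295 and 0.0756%. Cox6b1 of cytochrome oxidase read 32817, 32873 and 32873, and the lactate dehydrogenase Ldhb had a coefficient of 0.214%. The tubulin Tuba1a, with 21305, 21393 and 21455, was another member of this set of 20. Nppa, the atrial natriuretic peptide that the embryonic ventricle makes, was as high in signal yet less steady, with 28863, 26431 and 16674. Its heart 3 value was lowest, whereas Nppb, the related B-type peptide, read 6532, 5583 and 5537 with hearts 2 and 3 alike.

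Genes with over 2-fold range were assigned to the heart farthest from the middle value. Heart 1 stood apart in 159 of the 380 genes, higher in 103 and lower in 56. Heart 2 stood apart in 105, higher in 50 and lower in 55, and heart 3 in 116, higher in 39 and lower in 77. Heart 1 also had the largest ratio of 3′ to 5′ signal for the control transcript Gapdh, a sign of RNA integrity, with log2 ratios of 1.33, 0.90 and 1.03. The same ratio for Actb was 2.76, 2.80 and 2.76, with the hearts alike. The part of RNA quality in the genes of heart 1 was not tested.

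The 2 widest ranges belonged to genes of the sex chromosomes, Eif2s3y and Xist. Xist, the RNA that coats the inactive X chromosome of females, read 6016, 6130.4 and 9.50. The Y-linked Eif2s3y read 4.45, 4.39 and 7856, Kdm5d 4.63, 4.59 and 2023 and Uty 5.93, 5.45 and 213. Hearts 1 and 2 thus carried Xist without detected Y transcripts, and heart 3 the reverse. Against the floor, Eif2s3y was at least 94.7-fold higher on heart 3 and Xist at least 73.9-fold lower there. The X-linked Kdm6a and Eif2s3x, which have Y partners, were lowest on heart 3, with 2143, 1798 and 1235 and 9977, 9218 and 7102, both under 2-fold in range. Over 304 X-linked genes above the floor, heart 3 lay 0.042 above the mean of hearts 1 and 2 on the log2 scale at the median. Any other property in which heart 3 differed cannot be told apart from its X and Y status here.

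Beyond the sex chromosomes, the 25 widest ranges were a mixed set. The next after Xist was Dcpp1, a gene of secreted salivary protein, with 883, 3397 and 5.16, or at least 41.0-fold lower on heart 3 than on heart 2. Several were known interferon-induced genes that were lowest on heart 3. Rtp4 read 1045, 769 and 52.6, Ifi27l2a 1911, 2824 and 291, and Lgals3bp, a secreted galectin ligand, 543, 955 and 117. On the list of 14 interferon response genes, Gbp3, an induced GTPase, was the member with over 2-fold range, with 405, 451 and 19.8. Ifitm3, named after its values were seen, read 11266, 12220.1 and 6243. Only 4 of the 14 were above the floor on all hearts. Of those 4, 2 were lowest on heart 3 and 3 were highest on heart 2, beside 2817 and 2489 of the 9156 genes. The list's summed signal was 15002, 17418 and 9790, and without Ifitm3, its member of highest signal, it was 3736, 5198 and 3548. Rsad2 and Ifit2 of the same list did not share the low value on heart 3, with 1360.0, 2616 and 1685 and 1577, 1555 and 1644. Macrophage markers had summed signals of 19381, 17280 and 13466, or 7901, 6731 and 6791 without C1qb. Of the 6 of 11 above the floor, 3 were lowest on heart 3 and 3 on heart 2, and their part in the result was not tested.

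Other wide ranges separated heart 1 from the pair. Tmem18, a nuclear membrane protein gene, read 2919, 299 and 284. Peg10, an imprinted gene derived from a retrotransposon, read 95.9, 574 and 864. Grhpr, an enzyme of glyoxylate removal, read 4.69, 1877 and 1449.7. Tmem18 was high and the other pair low on heart 1. Of the circadian list, 13 of 16 genes were above the floor, and 2 of these 13, or 15.4%, had over 2-fold range, beside 3.99% of all genes. They were Per2, with 1119.8, 300.2 and 297, and Per1, with 366, 182 and 185. Both repressor genes were high on heart 1, while Per3 read 3318, 4177 and 2922, with heart 2 the highest. The times at which the embryos were collected are not given in the sources used here.

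In the heat shock and hypoxia lists, 1 of 14 and 1 of 16 detected genes passed a 2-fold range, or 7.14% and 6.25%, beside 3.99% of all genes. Of 14 immediate early and heat shock genes above the floor, 11 had their highest value on heart 1, against 3773 of 9156 over all genes, and the inducible chaperone Hspa1b, with 1174, 519.6 and 729, passed 2-fold. The immediate early gene Fos read 619, 362 and 361. Of 16 hypoxia and stress genes above the floor, 10 were highest on heart 1 and 10 lowest on heart 3, where 2817 of the 9156 genes were lowest, and P4ha1, a collagen hydroxylase, passed 2-fold with 733, 388 and 317. No listed growth and mitosis gene did, and 8 of 15 were highest on heart 1 and 8 lowest on heart 2, beside 3773 and 3218 of the 9156.

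**Figure D5:**
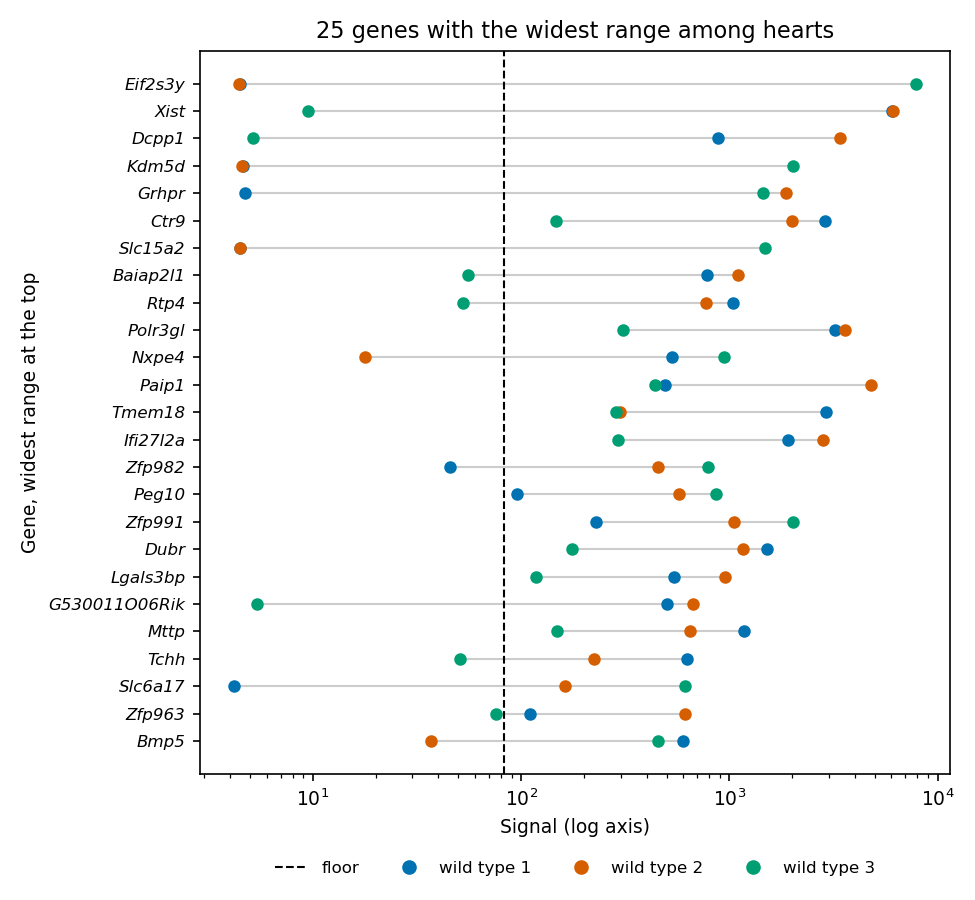
Signal (log axis) of the 25 genes with the widest range among the 3 wild-type hearts, 1 point per heart joined by a grey line, with the floor as a dashed line. Eif2s3y and Kdm5d are high on heart 3 alone, Xist on hearts 1 and 2, and Rtp4, Ifi27l2a and Lgals3bp have heart 3 on the left.

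A second probe set did not always repeat a wide range. Of the 380 genes, 70 had another probe set above the floor, and in 19 of these, 27.1%, it also passed 2-fold with the same high and low hearts. For Xist the other probe sets read 4674, 3934 and 4.71, and 3789, 5670 and 5.46, and so repeated the low value on heart 3. The other probe sets of Eif2s3y, Kdm5d and Rtp4 were under the floor on all 3 hearts and showed no such range. For Baiap2l1, an actin regulator with 783, 1097 and 55.7, the second probe set read 514, 587 and 34.4. For the translation factor partner Paip1, with 488, 4762 and 437, 1 of 3 others read 49.2, 1364 and 72.8, and another read 317, 301 and 442. For Zfp991, a zinc finger gene with 229, 1049 and 2032, another probe set ran the opposite way, with 600.2, 396 and 179. Bmp5, a growth factor with 599.9, 36.7 and 455, and Mttp, a lipid transfer protein gene with 1179, 650.0 and 149, had no second probe set above the floor.

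Promoters of genes above and under the floor had different median counts of CG pairs. The windows matched those printed above, and 7450 of the 9156 genes above the floor had at least 1, giving 9571 promoters. The median promoter of a gene above the floor held 21 CG pairs per 300 bases, and that of a gene under the floor on all 3 hearts held 8. Among the 195 promoters of the top 1% by signal the median was 22. Promoters of the cytosolic ribosomal proteins above the floor had a median of 23, and those of growth and mitosis genes 24.

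Lists of heart genes differed in their medians. The 6 lists of sarcomere and actin genes had 33 promoters above the floor with a median of 6 CG pairs, and the troponins had 7 promoters with a median of 5 and at most 6. The ventricular markers had 15 promoters with a median of 5. Within them Irx4, with 31, and Hey2, with 29, were the members with 15 or more, and both are transcription factor genes. Fibroblast and endothelial markers above the floor also had low medians, of 5 and 6. Some other heart lists had more. Medians were 17 for the cardiac transcription factors, 17 for the pacemaker and potassium channels and 18 for the cytochrome oxidase isoforms. Others were low as well, with 6 for calcium pumps and release channels and 7 each for sodium and calcium channel subunits and atrial markers. The family of potassium channel subunits sorted by name had a median of 10. Over all promoters of measured genes the median was 16. Tropomyosins, used in nearly all cells, had a median of 20, and lymphatic markers had a median of 25. These counts were added after the values were seen, and the lists are small.

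The letters TATAAA were searched on the strand of the gene. They occurred in 4.40% of promoters of genes above the floor, 8.42% of those under it, 7.69% of the top 1% and 8.32% of all 32851 promoters in the RefSeq table. On the opposite strand, read as TTTATA, the shares were 3.49% above and 5.47% under the floor. Of 145 promoters of isoform genes above the floor, 9 held TATAAA, or 6.21%, the same share as in all 18109 promoters of measured genes. A shorter search for TATAA gave 8.91% above and 16.95% under the floor.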

How the data were processed

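The authors deposited 1 table of intensity on a linear scale, with 45101 probe sets on 12 arrays. MAS5 is named in the submitters' processing notes, with no version, and how the intensities were summarised is not stated further in the sources used here. Whether MAS5 gave the low peak and the nearly equal distributions of these values was not tested. The 3 wild-type columns were used as deposited. Median signals of the arrays lay between 6.08 and 6.14, and 37.6% to 37.8% of probe sets passed the floor. Both follow from the nearly equal distributions, so they cannot show whether the arrays were alike in depth. No pair of arrays shared more than 5 identical values.

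In the platform annotation, 34945 probe sets had 1 gene, 932 had several genes and 9160 had no gene, and the first kind was kept. Symbols were updated by gene identifier to the RefSeq table of GRCm38.p6, which matched 34741. Signals under the floor were raised to it, then log2 was taken, and SD of log2 signal and range were computed over 3 hearts. The coefficient of variation was computed from the linear signals as deposited, with no floor. Python 3.11.15, pandas 2.3.3 and numpy 2.4.6 were used. The scripts were tested on simulated data. Promoter sequences came from RefSeq.

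Genes, lists and families were chosen with earlier results of these data known. The text names the 4 markers, members of 55 lists with their state at the floor, up to 6 members of a family by signal, the 25 widest ranges and the 20 steadiest high signals. Members of a list with no single-gene probe set were not analysed here. Alternatives covered the floor, including a floor taken from all 12 arrays, the probe set and its suffix. They also covered quantile normalisation, a pseudocount of 16, the range, the motif and each heart left out.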

Additional observations from a re-analysis of the deposited data

How the results depend on the processing

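Of 65 alternative values computed, 58 stayed within 1.5 times the reported count or median SD, the binomial interval of the motif share or the spread of the marker, and no direction could turn because no groups were compared. With the median probe set of each gene in place of the highest, 5937 genes were above the floor on all 3 hearts, against 9156, and 105 isoform genes, against 143. That choice left 382 genes with over 2-fold range, of which only 180 were among the 380 reported. Leaving out each heart in turn left 156 to 203 genes with over 2-fold range, against 380, since a range over 2 hearts covers fewer pairs, with the lowest count without heart 1. The same step, with only 2 hearts in each SD, moved the median SD of log2 signal to between 0.0806 and 0.117, again lowest without heart 1. Lowering the range from 2-fold to 1.5-fold gave 1385 genes. The motif TATAA was found in 8.91% of promoters of genes above the floor. Halving or doubling the floor gave 9655 and 8507 genes above it, and 497 and 267 genes with over 2-fold range. A floor taken from all 12 arrays, the null ones included, gave 9157 and 380. The mean log2 signals of Myh7, Myl2, Actc1 and Tnnt2 moved by less than their spread in all 16 cases tried. With a heart left out this outcome was fixed, because dropping 1 of 3 values always shifts their mean by less than their SD. Only the cases with quantile normalisation could have come out otherwise, and all 16 count among the 58. No paired analysis was possible because only 1 group was described. Arrays give no count of reads, and with nearly equal distributions the share of signals over the floor cannot measure depth. A set of 3 hearts limits every spread.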

Other observations

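Of probe sets with no gene in the annotation, 1413 of 9160, or 15.4%, were above the floor on all 3 hearts, against 14545 of 34945, or 41.6%, of those with 1 gene. Detection also varied between probe sets of a gene. Of 9010 genes with at least 2 probe sets, all of them were above the floor in 1642 genes, none in 2842, and they differed in 4526, or 50.2%. Myoglobin, Mb, is an example, with 1 probe set at 18597, 19047 and 14872 and another at 4.28, 4.26 and 4.27. For the cardiac gap junction gene Gja1, the lowest of 5 probe sets read 10045.5, 9622 and 9373, and the sixth read 334.5, 1319 and 815. Probe sets of titin, Ttn, the spring of the sarcomere, spanned from 27303, 26514 and 26751 down to 13.2, 247 and 154.

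Some single genes outside the muscle lists also varied between hearts. Sox11, a factor of immature cells, read 8368, 4015 and 5072, and was the higher on heart 1. Bmp2 read 196, 86.7 and 238, with heart 2 the lowest, as it was for Bmp5. The serotonin receptor Htr2b read 90.7, 408 and 408, lowest on heart 1, and the purinergic receptor P2rx4 read 866, 383 and 439, highest there. The water channel Aqp4 read 4502, 7242 and 5139.6, with heart 2 the highest. These are values of single hearts and were not tested.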
